A study of Mus musculus with 12 samples.

Results

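Regions closed with T618I were stretches of mouse chromatin in which an ATAC-seq peak was called in many libraries without mutant CSF3R and in few or none with it. The broad peaks of 12 libraries on chromosomes 1 to 19 and X were merged wherever they shared at least 1 bp. A merged region counted as closed when the number of Empty libraries with a peak (of 6) exceeded the number of T618I libraries with a peak (of 6) by at least 4. This rule took 462 of 56682 merged regions, or 0.815%. The mirror rule, with T618I in excess by at least 4, took 2081 regions, or 3.67%, which are called opened. The closed regions were chosen by the difference in peak calls between T618I and Empty, so every T618I against Empty value of theirs is given as a description, with no test.

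The cells were the HoxB8 line, mouse bone marrow cells immortalised with HoxB8, and all 12 libraries were made from cells kept without estrogen for 48 h. Groups of 3 libraries each carried an Asxl1 guide and the pMICH vector with CSF3R T618I (sgB2/T618I), a non-targeting guide and the same vector (sgNT/T618I), the Asxl1 guide and an empty vector (sgB2/Empty), or the non-targeting guide and an empty vector (sgNT/Empty). The 6 T618I libraries therefore held 3 with and 3 without the Asxl1 guide, and so did the 6 Empty libraries. CSF3R was added from a vector, the Asxl1 allele came from 1 guide, and the labels do not say whether replicates were separate cultures, so the spread between them may be technical. A peak overlapped or lay within 1 kb of an end of Spi1, Cebpa, Kit, Mpo, Csf1r and Cebpe, genes of myeloid progenitors, in all 12 libraries, and of Elane in 1. Of the other lineage markers reported, Pax5, Cd3e, Cd3g, Bcl11b, Gata1, Hba-a1, Pdgfra and Cdh5 had none in any library, while Cd79a and Klf1 had one in 12 and Col1a1 in 11. Asxl1 and Csf3r had such a peak in 12 libraries and Hoxb8 in 1. A peak at these genes checks neither the truncation nor the vector, and none of the 3 engineered genes had a closed region within 50 kb.

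CSF3R is the receptor for granulocyte colony-stimulating factor. It signals through JAK kinases and STAT factors and drives the growth and maturation of neutrophils, and T618I is a change next to the membrane that lets it signal without ligand. ASXL1 is a chromatin protein that works with the BAP1 deubiquitinase, and truncating mutations of it are common in myeloid neoplasms. HoxB8 tied to an estrogen-dependent switch holds myeloid progenitors in an immature state, and estrogen removal lets them mature. During such maturation, enhancers used by progenitors lose accessibility while enhancers of mature cells gain it. ATAC-seq marks open DNA by the insertions of a transposase. In bulk cells, fewer cells with a region open and less opening per cell cannot be told apart, and a region without a peak is one in which none was called, not one shown to be shut.

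Most closed regions lay away from gene starts. A RefSeq promoter window, 250 bases before to 50 after a start, overlapped 25 of the 462, with 28 windows of 27 genes, 16 of them wholly inside the region. The windows below are shown because they are the only letters held for these regions, and they belong to 4 regions that differ in how clearly they closed. Sequences are from RefSeq on GRCm38.p6, whose coordinates are those of mm10. Each is written 5′ to 3′ on the strand of its gene, in lower case with matches to 14 short motifs in capitals. Gm51419, a predicted gene, has the window chr12:53252889-53253188 (plus strand), wholly inside a closed region inside Npas3 with a peak in 0 of 6 T618I and 6 of 6 Empty libraries. The Efcc1 window, chr6:87730619-87730918 (plus strand), shares 157 bases with a region that also had 0 of 6 T618I and 6 of 6 Empty peaks. In Tle6, a gene of the Groucho corepressor family, the window chr10:81597318-81597617 (minus strand) lies in a region with 1 T618I and 6 Empty peaks. Pik3ip1, an inhibitor of phosphoinositide 3-kinase, has the window chr11:3330481-3330780 (plus strand) in a region with 1 T618I and 5 Empty peaks. A peak counted for a region need not cover the window in it. The full width of the Npas3 region came from 1 library, and which libraries covered the windows was not checked.
Gm51419: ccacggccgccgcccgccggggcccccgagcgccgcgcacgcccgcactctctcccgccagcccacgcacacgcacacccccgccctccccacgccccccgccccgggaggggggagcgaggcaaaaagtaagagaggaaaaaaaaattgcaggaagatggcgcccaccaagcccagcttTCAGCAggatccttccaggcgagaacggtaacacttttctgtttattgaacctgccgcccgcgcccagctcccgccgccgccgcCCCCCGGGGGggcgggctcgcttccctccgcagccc
Efcc1: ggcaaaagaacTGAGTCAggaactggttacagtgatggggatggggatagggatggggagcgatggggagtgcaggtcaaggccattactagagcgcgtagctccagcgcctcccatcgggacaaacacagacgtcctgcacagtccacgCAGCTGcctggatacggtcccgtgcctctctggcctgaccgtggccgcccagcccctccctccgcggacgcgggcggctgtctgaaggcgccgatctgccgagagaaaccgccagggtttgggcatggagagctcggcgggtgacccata
Tle6: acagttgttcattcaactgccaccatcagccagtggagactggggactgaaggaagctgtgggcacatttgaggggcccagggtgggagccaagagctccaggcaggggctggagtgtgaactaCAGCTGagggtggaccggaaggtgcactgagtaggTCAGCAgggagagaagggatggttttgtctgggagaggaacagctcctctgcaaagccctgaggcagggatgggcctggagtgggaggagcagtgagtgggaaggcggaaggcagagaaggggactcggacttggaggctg
Pik3ip1: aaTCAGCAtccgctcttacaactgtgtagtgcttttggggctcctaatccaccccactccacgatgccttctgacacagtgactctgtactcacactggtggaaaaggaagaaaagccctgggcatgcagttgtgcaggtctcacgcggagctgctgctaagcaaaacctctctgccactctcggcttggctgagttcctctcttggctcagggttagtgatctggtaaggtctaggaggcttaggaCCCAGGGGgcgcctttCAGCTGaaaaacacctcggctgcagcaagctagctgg

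These 4 windows show both kinds of letters found among the 28. The Gm51419 window has a GC content of 71.3% and holds 33 CpG pairs, against 60% and 3 for Tle6, 64.0% and 22 for Efcc1, and 54.7% and 7 for Pik3ip1. Over all 28 windows the median GC content was 58% and the median number of CpG pairs 13. The 143 windows in opened regions had medians of 53.3% and 5, the 9642 in regions with a peak in all 12 libraries 62.7% and 23, and all 32619 windows 53% and 7. The E-box CAGCTG, a palindrome bound by basic helix-loop-helix factors, stood in 9 of the 28 windows (32.1%), against 19.6% of windows in opened regions, 13.0% in regions open in all 12 libraries and 16.4% of all windows. CCCNNGGG, the core bound by EBF factors, stood in 8 (28.6%), against 17.5%, 18.3% and 13.8% of the same sets. TGANTCA, the AP-1 motif, stood in 4 (14.3%), against 20.3%, 3.86% and 7.85%. The RUNX motif TGTGGT stood in 3 (10.7%), against 25.2%, 11.6% and 16.6%. Whole windows were searched, so a site can lie outside the closed region, and overlapping windows can count the same site again. Of the AP-1 windows, those of Ivl and Gm35639 share the same site. In those of Efcc1 and Junos the site lies outside the closed region.

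Other motifs were in few windows. The MAF half-site TGCTGA was in 6 (21.4%, against 19.5% of all windows), TTCNNNGAA of STAT factors in 4 (14.3%, against 8.34%), TGACAG of MEIS factors in 4 (14.3%, against 18.9%) and AGATAA of GATA factors in 2 (7.14%, against 11.2%). TTGCNNCAA of C/EBP factors was in 1 (3.57%, against 2.09%) and AACNGTT of MYB in 1 (3.57%, against 4.45%). CTTTGAA of TCF factors was in 2 windows (7.14%, against 5.14%) and TGATTNAT of HOX and PBX partners in 1 (3.57%, against 3.24%). The ETS letters CCGGAAGT were in none, against 3.91%, and the ETS site favoured by PU.1 in 1 (3.57%, against 3.22%). Of 5 longer motifs, that of NF-kB was in 4 windows (14.3%, against 20.9% of all). Those of IRF, MEF2, GFI1 and CTCF were in none, against 3.46%, 0.166%, 2.84% and 0.162% of all windows. Overlapping windows of Gm32834 counted the same STAT and NF-kB sites again, and the STAT site of Gm32673 lies outside its closed region. All motifs were searched on both strands, and the capitals of one motif can overlap those of another. With 28 windows, and with GC content differing between the sets, these shares are counts of letters and were not tested.

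Closed regions formed the short side of an uneven distribution. Differences of 4, 5 and 6 libraries in favour of Empty were held by 336, 94 and 32 regions, while the same differences in favour of T618I were held by 1236, 591 and 254. Opened regions thus outnumbered closed ones by 4.50 to 1. The ratio depends on how long the peak lists are, which differed between libraries: T618I lists held 23695 to 32975 peaks (27667 ± 3413, SD, n = 6) and Empty lists 18484 to 29699 (24366 ± 4187, SD, n = 6). When every list was trimmed to its 18484 strongest peaks, the length of the shortest, 868 regions were closed and 1137 opened, or 1.31 opened to 1 closed. With peaks of −log10 q of at least 3 only, the counts were 478 and 1539. How much of the uneven distribution goes with list length was not tested beyond these 2 settings.

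**Figure D1:**
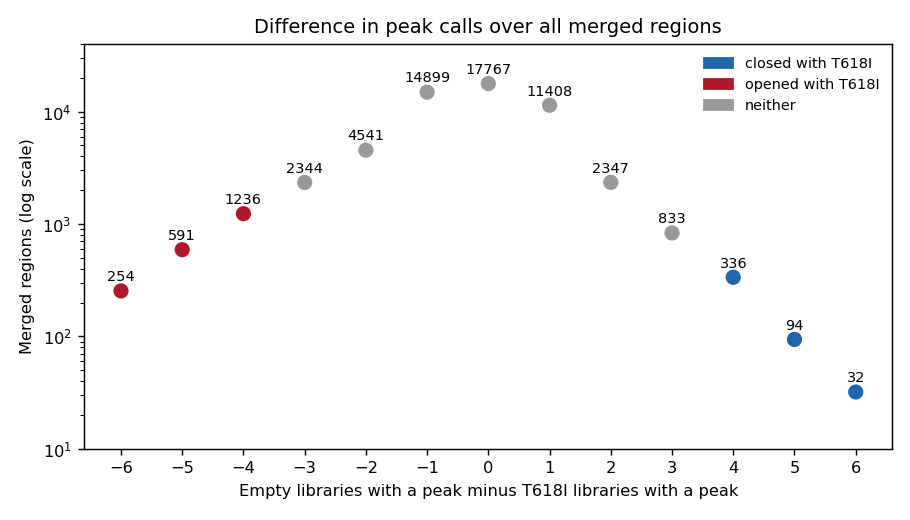
Merged regions (vertical axis, log scale) by the number of Empty libraries with a peak minus the number of T618I libraries with a peak (horizontal axis), with closed regions in blue, opened regions in red and the rest in grey. The closed side falls from 336 regions at 4 to 32 at 6, and the opened side from 1236 at −4 to 254 at −6.

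Just inside the threshold, the 336 regions with a difference of 4 had a median width of 451 bp, and 8.93% lay at a gene end, meaning within 1 kb of the start or end of a gene. Just outside it, the 833 regions with a difference of 3 had a median width of 450 bp, and 9.96% lay at a gene end. Their median peak strength was also close: a within-list percentile of 30.8 inside and 26.1 outside. This percentile places a peak among all peaks of its own library by −log10 q, from 0 for the weakest to 100 for the strongest, averaged over the Empty libraries that have the peak. The threshold cuts through a continuous range, with no gap at 4.

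Of the 462 closed regions, 261 (56.5%) had no peak in any T618I library and 201 (43.5%) had 1 or 2. The largest class, 171 regions, had a peak in 4 Empty and 0 T618I libraries. A further 58 had 5 and 0, 96 had 5 and 1, 36 had 6 and 1, and 69 had 6 and 2. Complete separation, 6 Empty and 0 T618I, was met by 32. With 3 libraries a group, a difference of at least 4 cannot come from 1 guide alone, so the rule makes both guides contribute in all 462 regions. In 327 (70.8%) the excess was at least 2 Empty peaks with each guide, and in the rest it was 3 with one guide and 1 with the other. The excess was larger among sgB2 libraries in 149 regions (32.3%), equal in 233 (50.4%) and larger among sgNT libraries in 80 (17.3%). No sgB2/T618I library had a peak in 375 regions (81.2%), and no sgNT/T618I library in 318 (68.8%). Replicates 1 and 3 of sgB2/T618I had the shortest T618I lists, with 24995 and 23695 peaks. Of 7085 regions with 4 to 8 peaks that were neither closed nor opened, sgB2/T618I libraries had a peak in 34.5%, 70.2% and 28.8%. The sgNT/T618I libraries had one in 62.9%, 50.5% and 63.2%. How much of the difference between guides goes with list length was not tested.

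Libraries within a group differed in how many closed regions they covered. In sgB2/T618I libraries 12, 65 and 18 of the 462 had a peak (2.60%, 14.1% and 3.90%), and in sgNT/T618I libraries 69, 35 and 71 (14.9%, 7.58% and 15.4%). In sgB2/Empty libraries 327, 397 and 432 had one (70.8%, 85.9% and 93.5%), and in sgNT/Empty libraries 247, 425 and 448 (53.5%, 92.0% and 97.0%). In each of the 4 groups the library with the longest list had the most closed regions, and sgNT/Empty replicate 1, with 247, had the shortest list of all. Peaks summed over the closed regions covered 3.78 to 20.1 kb in T618I libraries and 71.7 to 172 kb in Empty libraries. Over all regions, peaks covered 12.6 to 17.9 Mb in T618I libraries and 9.23 to 16.8 Mb in Empty libraries. The number of reads behind the lists is unknown, so list length is the nearest measure of depth here.

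**Figure D2:**
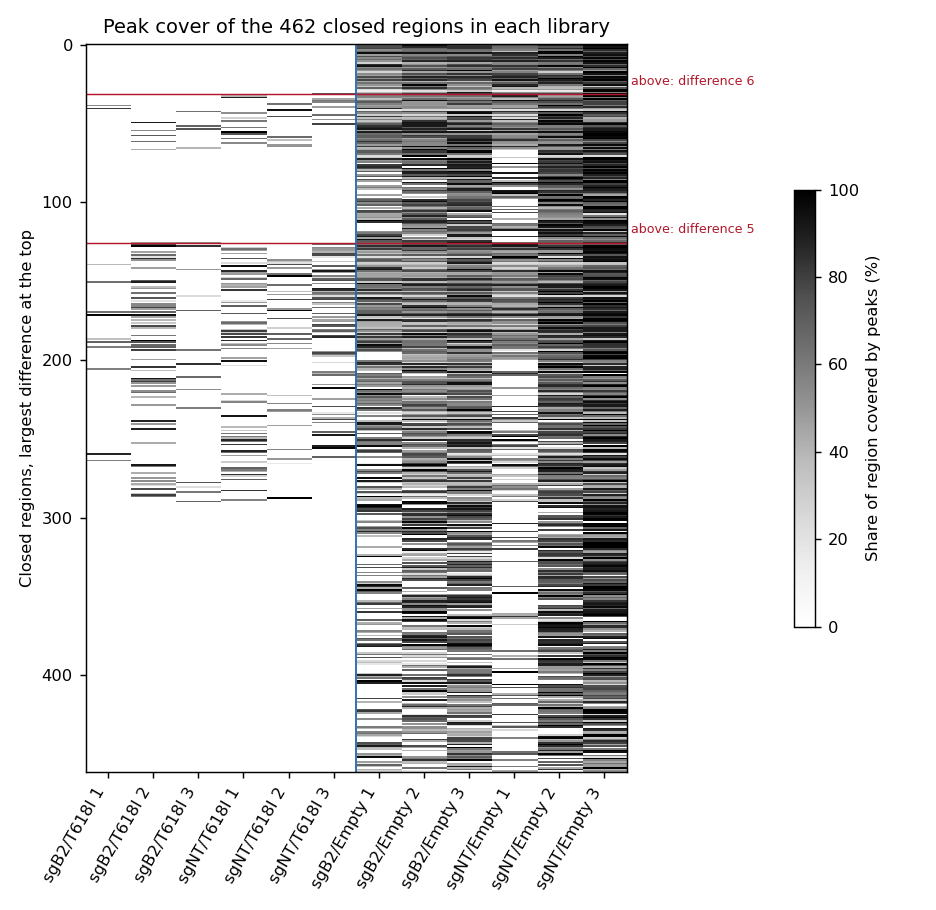
Share of each closed region covered by peaks (grey scale, percent) in each of the 12 libraries (columns, T618I left of the blue line and Empty right of it), with the 462 regions in rows by falling difference. The 32 regions above the first red line have no T618I peak, and the pale column right of the line is sgNT/Empty replicate 1, which has a peak in 247 regions.

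Peaks in closed regions were weak beside the median peak of their library, even where they were called. In Empty libraries their median fold enrichment, as given by the authors' peak caller, was 3.94 to 4.40 per library, against 4.69 to 5.06 for all peaks of the same libraries. The few closed regions that kept a T618I peak had medians of 3.25 to 3.80, against 4.21 to 4.92 for all peaks. The median within-list percentile of these peaks was 12.8 to 26.6 in T618I libraries and 22.8 to 38.6 in Empty libraries. In every library the median peak of the closed regions was thus weaker than the library's median peak. This was not particular to closed regions. By region, their median percentile was 32.3 in Empty and 19.5 in T618I libraries. Opened regions had 19.9 and 32.6, and the other 7085 regions with a peak in 4 to 8 libraries had 23.9 and 24.4.

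Membership was sensitive to processing. Of the 462 regions, 242 (52.4%) were still closed when only peaks with −log10 q of at least 3 counted, 228 (49.4%) with lists of equal length, and 255 (55.2%) when peaks had to cover at least 0.5 of the merged region. All 3 demands were met by 130 regions (28.1%) and none by 113 (24.5%). The share that met all 3 was 21 of 32 (65.6%) at a difference of 6, 41 of 94 (43.6%) at 5 and 68 of 336 (20.2%) at 4. It was 4 of 35 (11.4%) for regions at a gene end, 62 of 211 (29.4%) inside a gene and 64 of 216 (29.6%) between genes. Of the regions named below, those at Sash1, Gpr132, Efcc1, Zfp831, Npas3, Tle6, Pik3ip1, Prtn3, Ccl6, Lyl1, Ccnd2, Zbtb46, Cd44, Igll1, Klrb1c, Arhgap20, Slc13a5 and Tgfbr3, the weaker one at Cd9 and 2 of the 3 at Spry2 did not meet all 3, and the others did. This grouping was made after the values were seen.

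**Figure D3:**
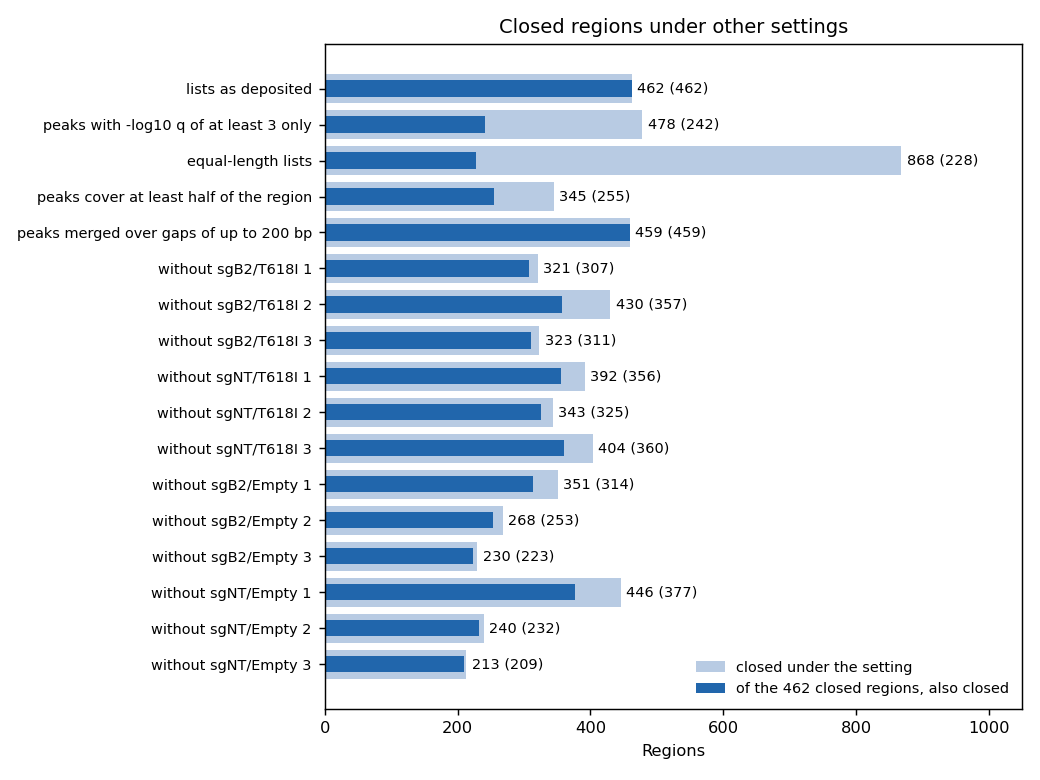
Number of regions (horizontal axis) that the rule closed under each setting (pale bars) and how many of the 462 closed regions were among them (dark bars, second number). Equal-length lists closed 868 regions with 228 of the 462 among them, and leaving out 1 library, with a difference of at least 4/6 in the share of libraries, gave 213 to 446.

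The libraries not used to choose a region gave the first independent reading. With the sgNT libraries alone, 204 regions (0.36% of all) had a peak in 3 of 3 Empty and 0 of 3 T618I libraries. Read in the 6 sgB2 libraries, which had no part in that choice, these regions had 0.583 T618I peaks and 1.48 Empty peaks of 3 on average. Peaks were fewer in sgB2/T618I than in sgB2/Empty in 112 of the 204 (54.9%, Wilson 95% interval 48.0 to 61.6, counting error only), equal in 67 and more in 25 (12.3%). The equal ones include 44 (21.6% of the 204) with no peak in any sgB2 library. The sgB2/T618I libraries had a peak in 31, 62 and 26 of the 204, and the sgB2/Empty libraries in 76, 103 and 122, with no overlap between the groups. Of 2400 other regions with 3 sgNT peaks in other arrangements, 24.8% had fewer and 37.4% had more peaks in sgB2/T618I, and over all regions the shares were 18.4% and 30.4%.

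In the other direction, 338 regions (0.596%) had a peak in 3 of 3 sgB2/Empty and 0 of 3 sgB2/T618I libraries. The sgNT libraries gave them 1.14 T618I peaks and 1.93 Empty peaks of 3 on average. Peaks were fewer in sgNT/T618I than in sgNT/Empty in 181 of the 338 (53.6%, interval 48.2 to 58.8), equal in 128 and more in 29 (8.58%). The equal ones include 44 (13.0% of the 338) with no peak in any sgNT library. Among 2216 regions with 3 sgB2 peaks in other arrangements the shares with fewer and with more were 22.5% and 43.6%. Over all regions they were 16.3% and 27.1%. The sgNT/T618I libraries had a peak in 146, 109 and 132 of the 338, and the sgNT/Empty libraries in 149, 238 and 267. The groups did not overlap, though sgNT/Empty replicate 1, the shortest list, had only 3 more than the highest T618I library. Complete loss with both guides was met by 32 regions, 15.7% of the 204 and 9.47% of the 338. By the mirror choice, 1204 regions gained with sgNT had more peaks in sgB2/T618I in 73.8% and fewer in 3.99%.

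A second reading chose regions with 11 libraries and looked in the one left out. With arms of 6 and 5, a region counted as closed when the share of Empty libraries with a peak exceeded the share of T618I libraries by at least 4/6, which an arm of 5 meets less easily. All 6 T618I libraries then had a peak in fewer of the closed regions than of regions with the same number of peaks in the other 11, and all 6 Empty libraries in more. The sgB2/T618I libraries had a peak in 8.10% of 321, 32.1% of 430 and 9.29% of 323 such regions, against 35.1%, 64.8% and 31.5% at the same number of peaks. The sgNT/T618I libraries had one in 26.8% of 392, 15.5% of 343 and 28.5% of 404, against 58.5%, 47.4% and 59.4%. The sgB2/Empty libraries had one in 51.0% of 351, 70.1% of 268 and 83.9% of 230, against 21.5%, 32.6% and 44.9%. The sgNT/Empty libraries had one in 36.3% of 446, 81.3% of 240 and 91.5% of 213, against 14.98%, 49.8% and 61.7%. Over libraries the shares were 20.03% ± 10.4 in T618I, against 49.4% ± 13.8 at the same number of peaks, and 69.0% ± 21.3 in Empty, against 37.6% ± 17.8 (SD, n = 6 each).

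**Figure D4:**
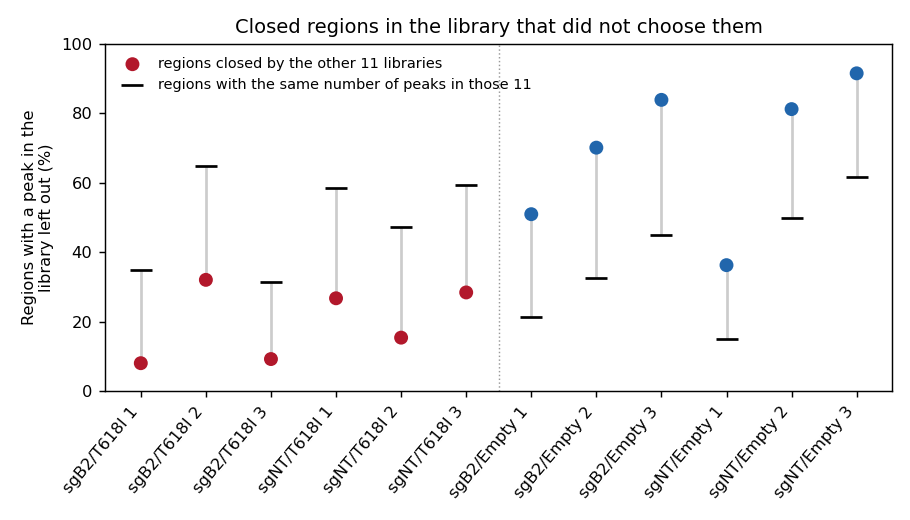
Share of regions with a peak (vertical axis, percent) in each library (horizontal axis) when the other 11 libraries chose the closed regions (points, T618I red and Empty blue) and for regions with the same number of peaks in those 11 (dashes). All 6 T618I points lie below their dash and all 6 Empty points above it.

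Closed regions were narrower than opened ones and farther from gene ends. Their median width was 438 bp, against 542 bp for opened regions and 498 bp for the other 7085 regions with a peak in 4 to 8 libraries, a set with a similar number of peaks. Only 21 (4.55%) were at least 1 kb wide, against 14.4% of opened and 10.5% of the other regions. Over all peaks, median widths were 395 to 478 bp in Empty libraries and 447 to 521 bp in T618I libraries. Closed regions rest mainly on Empty peaks and opened ones on T618I peaks. How much of the width difference goes with this was not tested. At a gene end lay 35 (7.58%, Wilson 95% interval 5.50 to 10.4), against 9.03% of opened, 10.8% of the other and 20.2% of all merged regions. A further 211 (45.7%) lay inside a gene and 216 (46.8%) between genes, against 46.6% and 44.4% for opened regions and 47.2% and 42.0% for the other regions. The median distance to the nearest gene end was 22.0 kb, against 13.7 kb and 14.2 kb. The nearest region with a peak in all 12 libraries was at a median of 41.9 kb, against 20.8 kb for opened and 26.4 kb for the other regions. The distance to a gene end was 22.6, 19.6 and 22.5 kb at differences of 4, 5 and 6, against 18.2 kb in the 833 regions just below the threshold. These are descriptions, since regions of 1 set of libraries are not replicates. With equal-length lists 10.4% of closed regions lay at a gene end, and the other sets were not recounted at that setting.

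Opened regions were less frequent around closed ones than around the other regions: 60 closed regions (13.0%) had an opened region within 50 kb, against 32.5% of opened regions with another opened one and 20.2% of the other regions. Another closed region lay within 50 kb for 26 (5.63%), against 3.78% of the other regions with a closed one. The 462 regions thus formed 449 separate loci, and 13 loci held a pair. No locus had 3 regions, so no 3 loci stood out by number. One pair lay 5.97 kb from end to end beside Cd9, and another, at 12.6 kb, had Lipt2 and Pold3 as nearest genes. A separate region with a peak in at least 4 T618I libraries lay within 1 kb of 12 closed regions (2.60%), against 2.53% of the other regions. By chromosome the closed share ran from 0.479% on chromosome 19 to 1.16% on chromosome 14.

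The region with the strongest Empty peaks among the 32 with complete separation lay inside Adcy2, which encodes an adenylyl cyclase, at chr13:68928447-68928820. None of the 6 T618I libraries had a peak there. The −log10 q of its peaks was 11.5, 14.9 and 17.8 in sgB2/Empty and 12.1, 16.4 and 15.7 in sgNT/Empty, and the ranges of both guides overlapped. Its mean percentile was 73.0, the highest of these 32. The next, at chr6:125430373-125430721, lay 29.5 kb from Cd9, which encodes a tetraspanin of the cell surface. It had no T618I peak and −log10 q of 7.31, 10.5 and 15.2 in sgB2/Empty and 11.4, 13.7 and 10.6 in sgNT/Empty. Its partner, at chr6:125435714-125436339, was weaker, with 1.48 and 3.79 in 2 sgB2/Empty libraries and 1.97 and 1.59 in 2 sgNT/Empty libraries. The first of the Cd9 pair met all 3 stricter demands, and the second met none.

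Another such region lay inside Inpp5d at chr1:87640356-87640759. Inpp5d encodes SHIP1, a lipid phosphatase of blood cells that limits signalling by cytokine receptors. No T618I library had a peak, and −log10 q was 6.87, 17.4 and 21.0 in sgB2/Empty and 7.44, 9.07 and 6.64 in sgNT/Empty. The peaks covered 307, 349 and 342 bp in sgB2/Empty and 264, 296 and 377 bp in sgNT/Empty, so the covered length varied less than the strength. Inside Mcu, the pore of the mitochondrial calcium uniporter, chr10:59613351-59613682 had 5.15, 10.2 and 11.6 in sgB2/Empty and 4.33, 8.39 and 10.4 in sgNT/Empty. Inside Ggta1, the enzyme that adds the alpha-gal sugar, chr2:35441548-35441940 had 3.12, 12.5 and 6.13 in sgB2/Empty and 5.45, 7.21 and 6.61 in sgNT/Empty. In both, replicate 1 of sgB2/Empty, one of the shorter lists, was the weakest of its group.

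Of the 15 regions ranked first, 8 more followed the same pattern of 6 Empty peaks and 0 T618I peaks and met all 3 stricter demands, with mean percentiles below that of Mcu. Inside genes they were in Rsrc1 (chr3:67144985-67145523), which is linked to splicing, in Msrb3 (chr10:120848756-120849026), a methionine sulfoxide reductase, and in Emc2 (chr15:43479619-43479907), of the membrane protein insertion complex of the endoplasmic reticulum. Between genes they lay 10.8 kb from Fam78b (chr1:167102136-167102478), 18.2 kb from Lipt2 (chr7:100140692-100141051) and 197 kb from Mkln1 (chr6:31201526-31201947). The nearest genes were farther still for chr3:50848570-50849169, 349 kb from the cystine transporter gene Slc7a11, and for chr8:73293763-73294011, 530 kb from the thrombin receptor gene F2rl3. The region at chr17:62104693-62105053, 498 kb from Efna5, which encodes an ephrin ligand, followed the same pattern and ranked above Mcu. At such distances the gene name is a landmark only.

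The remaining one of the 15, inside Sash1 at chr10:8765813-8766396, had stronger peaks with the non-targeting guide. Its −log10 q was 1.48, 2.65 and 3.73 in sgB2/Empty and 6.17, 15.5 and 12.3 in sgNT/Empty, with no overlap, and 0 of 6 T618I libraries had a peak. Its covered length did not pass for sgB2/Empty against sgNT/Empty (log2 difference −0.41 ± 0.27, SE, adjusted p 0.771, limma). It did not stay closed with lists of equal length. Peak strength also did not overlap between guides, in the opposite direction, at Polr2c and Efcc1, whose values follow. The same was seen in other regions with complete separation that are not named here. How many of all regions separate in this way was not counted, so no guide difference is read from these cases. Farther down the list, chr15:101244042-101244403 lay 9.50 kb from Nr4a1, a nuclear receptor induced early by many stimuli, and met all 3 stricter demands; it was named after its values were seen. Its −log10 q was 4.13, 3.92 and 5.80 in sgB2/Empty and 4.79, 5.75 and 4.38 in sgNT/Empty.

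Few closed regions touched a gene end, and the most separated of them were weak. At chr8:94862667-94863380, inside the RNA polymerase II subunit gene Polr2c and 0.448 kb from an end of the adaptor gene Dok4, 0 T618I libraries had a peak. Its −log10 q was 4.40, 5.79 and 5.29 in sgB2/Empty and 2.78, 4.13 and 4.01 in sgNT/Empty. At the end of Gpr132, which encodes a lipid-sensing receptor of leukocytes, chr12:112868270-112868555 had 2.91, 4.35 and 4.79 in sgB2/Empty and 2.60, 3.01 and 2.34 in sgNT/Empty. The Efcc1 region whose promoter is printed above, chr6:87730762-87731510, had 2.37, 4.38 and 2.24 in sgB2/Empty and 1.68, 1.69 and 1.87 in sgNT/Empty. Neither the Gpr132 nor the Efcc1 region met all 3 stricter demands.

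The strongest closed region of all by percentile, 74.8, lay at an end of Ces1d, a carboxylesterase gene, at chr8:93197655-93198092, and kept weak peaks with T618I. Its −log10 q was 4.17 and 2.52 in 2 of 3 sgB2/T618I libraries, with no peak in sgNT/T618I. In sgB2/Empty it was 11.7, 34.3 and 15.8, and in sgNT/Empty 10.5, 19.1 and 13.2. Every Empty value thus exceeded both T618I values. At Zfp831 (chr2:174710155-174710679) 1 sgNT/T618I library had a peak of 2.38, against 3.58 to 5.47 in sgB2/Empty and 3.90 to 13.1 in sgNT/Empty. At BC035044 (chr6:128890921-128891315) 1 sgB2/T618I library had a peak of 2.51, against 2.99 to 6.55 in sgB2/Empty and 2.54 to 5.13 in sgNT/Empty.

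The Npas3 region with the printed Gm51419 promoter, chr12:53251707-53253728, was among the 21 of at least 1 kb, with a width of 2022 bp that 1 library set. Peaks covered 257, 448 and 651 bp of it in sgB2/Empty and 233, 352 and 2022 bp in sgNT/Empty, and none in T618I. Their −log10 q was 1.73, 3.33 and 3.75 in sgB2/Empty and 1.94, 2.15 and 3.21 in sgNT/Empty, so the peaks were weak in all 6 libraries. Npas3 encodes a transcription factor known from the nervous system. In the Tle6 region, chr10:81597273-81598092, 1 sgNT/T618I library had 3.66, against 6.27, 14.6 and 9.41 in sgB2/Empty and 1.79, 4.59 and 3.46 in sgNT/Empty. The Pik3ip1 region, chr11:3330142-3330801, had 2.3 in 1 sgNT/T618I library, against 2.67 and 2.09 in 2 sgB2/Empty libraries and 3.29, 4.29 and 5.05 in sgNT/Empty. In both regions the single T618I value lay within the range of the Empty values.

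Genes of blood cell types and pathways were then counted by whether a closed region overlapped them or lay within 50 kb. Over all protein-coding genes 764 of 21627 (3.53%) had one, and 3576 (16.5%) had an opened region. At 3.53% a list of 20 genes would hold fewer than 1, so single genes carry little. Primary granule genes, which encode the enzymes that promyelocytes pack first, had 3 of 11 near a closed region (27.3%) and 3 of 11 near an opened one. Those 3 rest on 2 regions. Prtn3 (proteinase 3) and Prss57, both serine proteases of granules, share chr10:79831722-79833026. That region had 0 T618I peaks and weak Empty peaks, with −log10 q of 1.97, 1.51 and 1.80 in sgB2/Empty and 2.15 in 1 sgNT/Empty library. It met none of the 3 stricter demands. Bpi, a bactericidal granule protein, lay 38.3 kb from chr2:158322877-158323330, which had 2.50 in 1 sgNT/T618I library, against 1.896, 7.498 and 3.62 in sgB2/Empty and 2.21, 6.56 and 6.82 in sgNT/Empty. Mpo and Elane had no closed region within 50 kb.

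Lists of later granules, mature neutrophils and JAK-STAT signalling had many genes near opened regions, against 16.5% of all genes. Their counts near closed regions are what the share of 3.53% over all genes gives for lists of this length. Some other lists, given below, also exceeded 16.5% near opened regions. Secondary and tertiary granule genes had 0 of 17 near a closed region and 10 of 17 near an opened one. JAK-STAT pathway genes had 0 of 20 and 11 of 20, and mature neutrophil genes 1 of 20 and 12 of 20. The 1 was Ccl6, a chemokine of myeloid cells, 5.39 kb from chr11:83598473-83598872. This region also lay within 50 kb of the chemokine genes Ccl3 and Ccl4, on the list of NF-kB and AP-1 genes. It had 0 T618I peaks and −log10 q of 7.86 and 5.81 in 2 sgB2/Empty libraries and 1.88 and 3.93 in 2 sgNT/Empty libraries. Jun, an AP-1 subunit, made 3 of 20 on that list, with 11 of 20 near an opened region. The Jun region, chr4:95094833-95095096, lay 42.6 kb away and had 4.28 and 3.09 in 2 sgNT/T618I libraries, against 5.54, 5.40 and 13.1 in sgB2/Empty and 3.49, 10.6 and 10.99 in sgNT/Empty.

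Progenitor lists held single members. Among surface and receptor genes of stem and progenitor cells 1 of 15 had a closed region, Kit, the receptor for stem cell factor. That region, chr5:75615717-75616038, lies inside Kit and had 0 T618I peaks. Its −log10 q was 4.86 and 3.93 in 2 sgB2/Empty libraries and 9.42 and 6.19 in 2 sgNT/Empty libraries, and it met all 3 stricter demands. The peak at an end of Kit was called in all 12 libraries. Of stem and progenitor transcription factor genes 1 of 20 had a closed region, Lyl1, a basic helix-loop-helix factor, 18.8 kb from chr8:84682290-84682623. This region had 0 T618I peaks, 2.41 and 3.96 in 2 sgB2/Empty libraries and 4.36, 4.85 and 9.75 in sgNT/Empty. The cell cycle list had 1 of 18, Ccnd2 (cyclin D2), 13.4 kb from chr6:127165595-127165951. There 1 sgNT/T618I library had 3.27, against 1.73, 7.06 and 5.89 in sgB2/Empty and 2.21, 3.85 and 4.82 in sgNT/Empty. Near an opened region stood 5 of 15, 6 of 20 and 5 of 18 genes of these lists.

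Lists of other lineages had 1 or 2 genes near a closed region. Monocyte, macrophage and dendritic genes had 2 of 20 near a closed region, the factor genes Batf3 and Zbtb46, both known from dendritic cells. The Batf3 region, chr1:191075220-191075570, lies inside Nsl1, 22.8 kb from Batf3. It had 0 T618I peaks and 6 Empty peaks, of −log10 q 1.62, 4.42 and 6.16 in sgB2/Empty and 4.06, 4.80 and 11.7 in sgNT/Empty, and it met all 3 stricter demands. The Zbtb46 region, chr2:181377192-181377565, had 0 T618I and 5 Empty peaks. Adhesion, matrix and axon guidance genes had 2 of 19, Cd44, a hyaluronan receptor (chr2:102867564-102868023, 0 T618I and 6 Empty peaks), and Plxnc1, a semaphorin receptor (chr10:94923346-94923677, 0 and 5). Of these, the Plxnc1 region met all 3 stricter demands and the Zbtb46 and Cd44 regions did not.

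B-lymphoid genes had 2 of 18, the surrogate light chain genes Vpreb1 and Igll1, which share chr16:16856376-16857366 with 0 T618I and 4 Empty peaks. T and NK genes also had 2 of 18, Klrb1c (chr6:128796306-128796567, 0 T618I and 4 Empty peaks) and Ncr1 (chr7:4364705-4365152, 1 and 6), both receptors of NK cells. Mast cell, basophil and eosinophil genes had 1 of 15, the factor gene Mitf (chr6:97866623-97867041, 1 and 6). Erythroid and megakaryocyte genes had 1 of 18, Gp9, which is 44.6 kb from the Efcc1 region. Hox cofactor and Hox genes (0 of 11), Polycomb and ASXL-BAP1 genes (0 of 17) and housekeeping genes (0 of 15) had none. Near an opened region stood 2 of 18 B-lymphoid, 5 of 18 T and NK, 5 of 15 mast cell and 4 of 18 erythroid genes. So did 5 of 11 Hox, 3 of 17 Polycomb, 2 of 15 housekeeping, 3 of 20 monocyte and 6 of 19 adhesion genes. Markers of B, T, red cell and stromal lineages were mostly without a peak in any library, as given above, and their part in these counts was not tested.

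**Figure D5:**
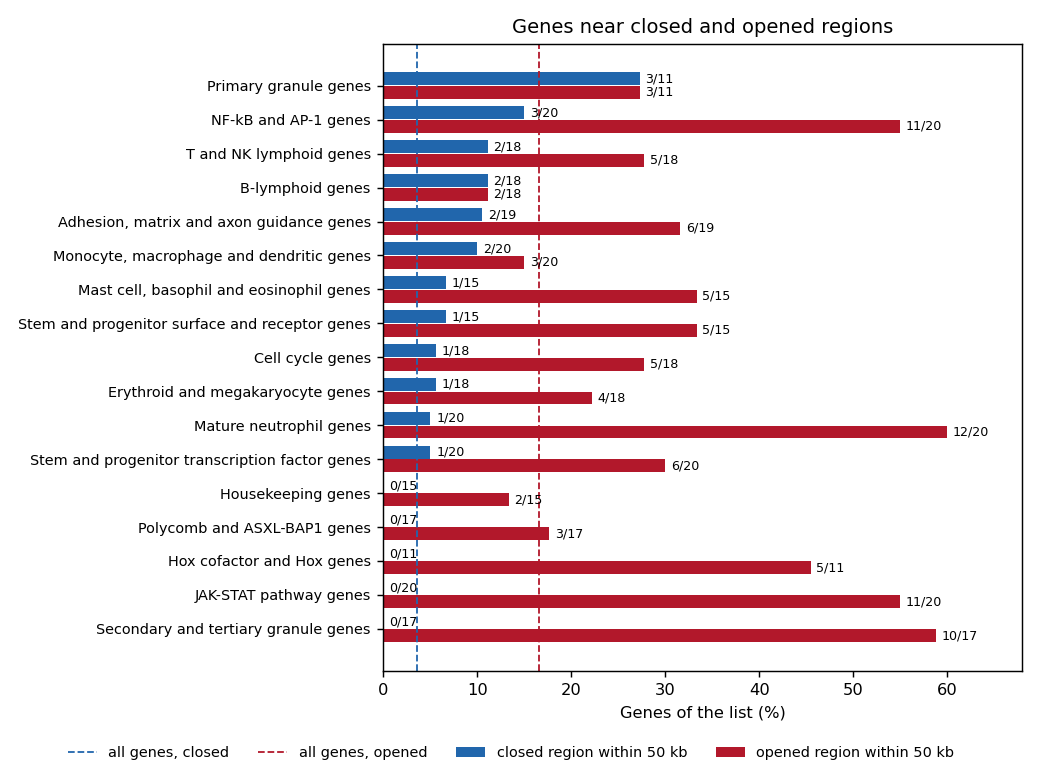
Share of the genes of each list (horizontal axis, percent) with a closed region within 50 kb (blue) or an opened region within 50 kb (red), with counts beside the bars and dashed lines for all protein-coding genes (3.53% and 16.5%). The 4 lists with the highest opened shares (12 of 20, 10 of 17, 11 of 20 and 11 of 20) have 1, 0, 0 and 3 genes near a closed region.

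Nearest genes were seldom repeated. The 462 regions had 441 nearest genes, of which 20 were nearest to more than 1. Spry2, an inhibitor of receptor tyrosine kinase signalling, was nearest to 3, at chr14:105779347-105779596, chr14:105851387-105851859 and chr14:105905617-105906221, and was picked for this after the counts were seen. Those had 0, 1 and 0 T618I peaks and 4, 5 and 4 Empty peaks, and the 2 with no T618I peak also had none in replicate 1 of sgB2/Empty or of sgNT/Empty. Of the 764 genes near a closed region, 182 also had an opened region within 50 kb, 23.8% of the 764 and 5.09% of the 3576 genes near an opened region. Over all protein-coding genes 16.5% had an opened region and 3.53% a closed one, so by genes the overlap lay above the base share, while by distance between regions it lay below that of the other regions.

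The rule did not use the Asxl1 guide by name, but it bounds what the guide can do in a closed region, since each guide must supply an excess of at least 1 Empty peak. Counts of closed regions called for the guide are therefore partly set by the choice and are given as a description. The bases covered by peaks in each region were scaled to equal totals and fitted as log2(covered bp + 200) with limma over all 37113 regions with a peak in at least 2 libraries, all 462 closed ones among them. For sgB2 against sgNT, averaged over vectors, 408 regions (1.1%) passed a Benjamini-Hochberg adjusted p of 0.05, with 139 higher and 269 lower in sgB2. Of the closed regions 0 of 462 passed. At an unadjusted p under 0.05 there were 25 (5.41%), against 11.2% of all regions tested, and the lowest adjusted p of a closed region was 0.0784 (limma). The median log2 difference was 0.01 in closed and 0.01 in all regions. On simulated data the fit found 92 of 200 planted guide differences, so differences of single regions can be missed. The planted pattern was the same under both vectors, which the rule for a closed region does not allow. That rate therefore does not apply to the 0 of 462. The closed regions differed from other regions in strength and width, and what that does to these shares was not tested.

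The interaction of guide and vector compares the change in cover with T618I between guides. The choice of regions bounds it too, since the excess can differ between guides by no more than 3 against 1, so a low count among closed regions says nothing about the guide. Over all regions 10 (0.0269%) passed, and of the closed regions 0 of 462. At an unadjusted p under 0.05 there were 24 closed regions (5.19%), against 5.70% of all. The median interaction, the T618I effect with sgB2 minus that with sgNT, was −0.12 in closed and −0.01 in all regions on the log2 scale. In closed regions it was −0.0442 with equal-length lists and 0.0219 without scaling. Its sign thus depended on the scaling, and no direction is read from it. The larger excess among sgB2 libraries noted above (149 regions, against 80 with sgNT) stands as a count of peak calls. Its dependence on list length was not tested.

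Within the Empty vector alone, a contrast added after the data were seen, 322 regions (0.868%) differed between sgB2/Empty and sgNT/Empty, and 3 of them were closed (0.649% of 462). Inside Arhgap20, chr9:51769929-51770921 was covered over 961, 493 and 705 bp in sgB2/Empty, against 0, 0 and 208 bp in sgNT/Empty, and 0 bp in all T618I libraries. The log2 difference of sgB2/Empty against sgNT/Empty was 2.10 ± 0.37 (SE, adjusted p 0.0204, limma). Inside Slc13a5, a citrate transporter gene, chr11:72260049-72261087 was covered over 932, 978 and 952 bp in sgB2/Empty, against 0, 0 and 536 bp in sgNT/Empty, a difference of 2.21 ± 0.42 (SE, adjusted p 0.0307, limma). Inside Tgfbr3, the betaglycan co-receptor of TGF-beta, chr5:107219273-107220098 was covered over 0, 197 and 0 bp in sgB2/Empty, against 344, 670 and 696 bp in sgNT/Empty, a difference of −1.60 ± 0.34 (SE, adjusted p 0.05 after rounding, limma). The groups did not overlap in any of the 3, but these same values chose the regions, so this is no further evidence. The fit shares 1 spread over all 4 groups, and none of the 3 regions had a peak in any T618I library. Their SE and adjusted p thus rest partly on T618I values without spread, and do not measure the spread within Empty alone. The same holds for the Sash1 value above. Averaged over vectors none was called, and their number ranged from 0 to 15 over the other settings tried, with 0 at a pseudocount of 50 bp.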

How the data were processed

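ATAC-seq was done on 12 libraries, 3 in each of 4 groups taken from the genotype labels. The submitters' processing notes name BWA 0.7.17, SAMtools 1.9, bedtools 2.30, MACS2 2.2.7.1 and deepTools 3.5 with the build mm10. Which tool did which step, and the peak threshold, are not given in the sources used here. The deposited lists hold 1 library each in the broad peak layout. The files have no header line; by that layout, the deposited columns give a score, a fold enrichment (ratio over background) and −log10 p-values and q-values, as the authors' peak caller wrote them. They hold no read counts, so depth is unknown, and covered length and list length stand in for it.

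Peaks were merged at 1 bp overlap, and a region was closed when Empty exceeded T618I by at least 4 libraries. The members, gene lists and motifs were chosen with earlier results of these data known. Covered bases per region were scaled to equal totals, and log2(covered bp + 200) was fitted with limma 3.58.1 (trend, 4 group means, 8 residual degrees of freedom, Benjamini-Hochberg adjustment) in R 4.3.3; other steps used Python 3.11.15 with pandas 2.3.3. Tested on simulated data, the rule found 198 of 200 planted regions with 114 others called. The fit found 92 of 200 guide and 114 of 200 interaction differences, with 8 and 12 others called. Planted regions had a peak in nearly all libraries of one side and nearly none of the other, drawn independently for each library. Their recovery by the rule was thus nearly set in advance. It does not measure how the rule does with real regions, most of which had a difference of 4. Alternatives were peaks of −log10 q of at least 3, equal-length lists, a cover of at least 0.5 of the region, merging over 200 bp, thresholds of 3 and 5, other pseudocounts and filters, no scaling, a replicate block, and leaving out each library.

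Regions were named in order of their difference and then of mean within-list percentile in Empty (the first 15), with the first 6 at a gene end, up to 4 genes per list and the regions called by limma. Gene positions came from RefSeq on GRCm38.p6, without strand. Sequences of regions outside promoter windows were not used here. One marker gene is not reported here.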

Additional observations from a re-analysis of the deposited data

How the results depend on the processing

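The number of closed regions was 868 with equal-length lists, 1295 at a threshold of 3 libraries, 126 at a threshold of 5, and 213 to 446 with 1 library left out, where an arm of 5 needs a larger share by construction. The number opened was 1137, 4425, 845 and 1325 to 1992 in the same order. The share of regions lost with sgNT that had fewer peaks in sgB2/T618I was 71.3% with peaks of −log10 q of at least 3, 73.6% with equal-length lists and 39.2% to 61.3% with 1 library left out. The share lost with sgB2 that had fewer in sgNT/T618I was 68.7% with equal-length lists and 41.8% to 61.8% with 1 left out. The gene end share was 10.4% with equal-length lists and 6.52% to 8.37% with 1 left out. Closed regions called by limma for the guide numbered 6 with equal-length lists, 1 with a pseudocount of 800 bp and 0 with any 1 library left out, and for the interaction 3, 0 and 0. Over all regions, guide calls numbered 1091 with equal-length lists, 789 without scaling and 265 to 1710 with 1 left out. Interaction calls numbered 81 with stricter peaks, 515 with equal-length lists, 41 with a pseudocount of 50 bp, 41 without scaling and 4 to 421 with 1 left out, the 421 and the 1710 both without sgNT/Empty replicate 1, the shortest list. Closed regions called within Empty numbered 2 with stricter peaks, 15 with equal-length lists, 0 with a pseudocount of 50 bp, 2 without a filter, 1 without scaling and 0 to 3 with 1 left out. No pairing by replicate number was seen in covered length. As deviations from their group means, same-numbered libraries of different groups correlated at −0.0985 to 0.125 and others at −0.181 to 0.155. These overlapping ranges cannot show that no batch was shared, and the labels do not say. With the replicate block, 235 guide and 4 interaction calls were made over all regions, 0 of either in closed regions, and 0 within Empty. The causes of these changes were not tested. Without read counts, weak peaks limit every count above.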
